A study of Homo sapiens with 8 samples.

Results

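The genes examined here encode 8 proteins of the DNA damage response, namely ATM, ATR, PRKDC, PARP1, TP53BP1, BRCA1, BRCA2 and FANCA. They were chosen by name, and their members are the RBM45 CLIP peaks that share at least 1 base with the gene on its own strand in hg19. The WT CLIP replicate 1 list held 178 such peaks among 210878 stranded entries, and the replicate 2 list held 91 among 65587. The authors' list of shared peaks held 33 such pairs among 13758. CLIP (cross-linking and immunoprecipitation) recovers the RNA fragments that ultraviolet light has joined to a protein, and a peak is a stretch where such fragments pile up. HEK293T, the transformed line derived from human embryonic kidney, was the host, and all groups of the study expressed FLAG-HA-tagged human RBM45 from a lentivirus. RBM45 was therefore seen at the level of the transgene. The groups were METTL3 knockout CLIP, METTL3 knockout input, WT CLIP and WT input, with 2 replicates each, and CLIP used an antibody to the HA tag. Only the WT CLIP peak lists were used here. Those of the knockout and the inputs were not analysed here, so the part of METTL3, of RNA level and of general background in any peak was not tested. Whether the replicates came from separate cultures is not in the labels, so any spread between them may be technical.

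RBM45 is an RNA-binding protein with several RNA recognition motifs that is known from inclusions in amyotrophic lateral sclerosis. The DNA damage response detects breaks and stalled replication forks, signals them through large kinases, and repairs them by end joining, homologous recombination or crosslink repair. The kinases ATM, ATR and the catalytic subunit of DNA-PK (gene PRKDC) are related to each other. They answer double-strand breaks, exposed single-stranded DNA and broken ends bound by Ku. PARP1 senses strand breaks and builds poly(ADP-ribose). TP53BP1 restrains the resection of broken ends and BRCA1 favours it, BRCA2 acts in homologous recombination, and FANCA belongs to the Fanconi anaemia core complex that acts on interstrand crosslinks.

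RBM45 CLIP peaks were spread very unevenly over the 8 genes. FANCA, the crosslink repair gene, carried 79 peaks in replicate 1 and 47 in replicate 2, and PRKDC carried 40 and 14. PARP1 followed with 20 and 17. TP53BP1 had 12 and 5, BRCA1 had 10 and 2, ATM had 7 and 5, ATR had 7 and 1, and BRCA2 had 3 and 0. FANCA alone thus held 44.4% of the replicate 1 peaks, 51.6% of the replicate 2 peaks and 63.6% of the shared pairs of the set. PRKDC is the longest of these genes at 187 kb and PARP1 the shortest at 47.4 kb, while ATM spans 146 kb and ATR 130 kb (129.592 kb).

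Scaled to gene length, FANCA had 99.9 peaks per 100 kb in replicate 1 (exact Poisson 95% interval 79.1 to 124) and 59.4 in replicate 2 (43.7 to 79.0). PARP1 had 42.2 (25.8 to 65.2) and 35.9 (20.9 to 57.4), and PRKDC had 21.4 (15.3 to 29.1) and 7.48 (4.09 to 12.6). These 3 genes held ranks 1, 2 and 3 in both lists. The FANCA and PARP1 intervals did not overlap in replicate 1 but did in replicate 2. The interval of PRKDC overlapped those of BRCA1 and TP53BP1 in both lists. It also overlapped that of PARP1 in replicate 1 and those of ATM, ATR and BRCA2 in replicate 2. BRCA1 had 12.3 (5.91 to 22.7) and 2.46 (0.298 to 8.90) peaks per 100 kb. The neighbouring gene in the order, TP53BP1, had 11.6 (6.0 to 20.3) and 4.84 (1.57 to 11.3). ATR had 5.40 and 0.772, ATM had 4.79 and 3.42, and BRCA2 had 3.56 in replicate 1. The intervals of these last 5 genes overlapped each other within each list, so their order was not resolved. The intervals cover counting error only, each replicate gave 1 list, and no test was made between genes.

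**Figure D1:**
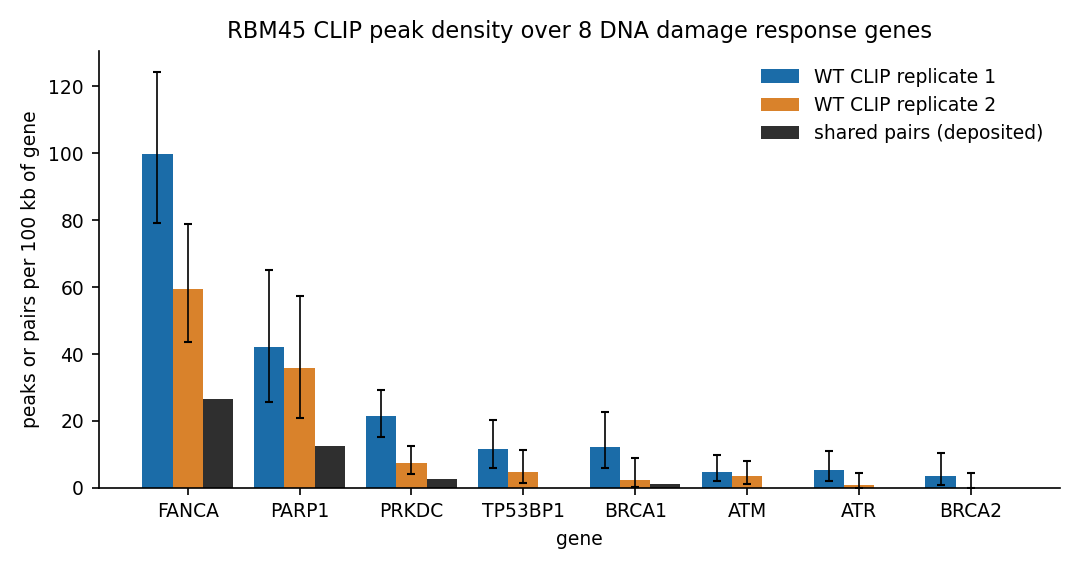
Peaks per 100 kb of gene (vertical axis) for each gene (horizontal axis), in WT CLIP replicate 1, in WT CLIP replicate 2 and as deposited shared pairs; error bars are exact Poisson 95% intervals of the peak counts. FANCA stands highest with 99.9 and 59.4 peaks per 100 kb, PARP1 follows with 42.2 and 35.9, and BRCA2 has no replicate 2 peak.

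The rest of the same chromosome and strand gives a scale for these densities, although it also holds sequence outside genes. FANCA was 21.8 times as dense as the rest of the chromosome 16 minus strand in replicate 1 and 32.9 times in replicate 2. PARP1 was 11.5 and 28.2 times as dense as its own strand, and PRKDC 8.13 and 10.8 times. BRCA1 lay near its surroundings, at 1.5 and 0.774 times the rest of the chromosome 17 minus strand, and ATR was at 1.51 and 0.748 times. TP53BP1 was denser than its own strand in both lists, at 3.60 and 5.18 times, and ATM was at 1.17 and 2.99 times. BRCA2 was at 1.77 times in replicate 1. In 100-kb windows of 1 strand with at least 1 peak, the median number was 6 in replicate 1 and 3 in replicate 2, and the 99th percentile was 64.5 and 34. FANCA, which spans 79.1 kb, exceeded that percentile in both lists. It did not reach the fullest windows, which held 173 and 105 peaks. The set had 1.96 replicate 1 peaks for each replicate 2 peak, against 3.22 over all entries. By gene this ratio ran from 1.18 in PARP1 to 7.0 in ATR, where replicate 2 gave a single peak. BRCA2, with 3 and 0 peaks, gave no ratio and is left out of this range.

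A larger share of the peaks in this set than of all peaks lay on a peak of the other replicate, and FANCA gave most of these overlaps. Of the 91 replicate 2 peaks, 48 touched a replicate 1 peak of the same strand by 1 base or more, giving 52.7% (95% Clopper-Pearson interval 42.0 to 63.3), against 28.8% of all replicate 2 entries. Of the 178 replicate 1 peaks, 47 overlapped replicate 2, or 26.4% (20.1 to 33.5), against 8.88% of all replicate 1 entries. FANCA gave 32 of 47 replicate 2 peaks, 68.1% (52.9 to 80.9), against 36.1% over the rest of chromosome 16. Without FANCA the share was 16 of 44, 36.4% (22.4 to 52.2), an interval that takes in the 28.8% of all entries. In replicate 1 the other 7 genes gave 16 of 99, 16.2% (9.53 to 24.9), an interval above the 8.88% of all entries. PARP1 had 8 of 17 (47.1%, 23.0 to 72.2) and PRKDC 6 of 14 (42.9%, 17.7 to 71.1), and both intervals also take in the 28.8%. From the side of replicate 1, PARP1 had 8 of 20 (40.0%, 19.1 to 63.9), against 9.63% over the rest of chromosome 1, and PRKDC had 6 of 40 (15%, 5.71 to 29.8), against 6.85% over the rest of chromosome 8. The PARP1 interval lies above the 9.63%, and the PRKDC interval takes in the 6.85%. None of the 5 TP53BP1 peaks of replicate 2 overlapped replicate 1, which allows a share of up to 52.2%. BRCA1 had 1 of 2, ATM 1 of 5, and ATR 0 of 1. Peaks of 1 gene come from the same RNA and the same library, so they are not independent and the difference from the rest of the series was not tested.

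**Figure D2:**
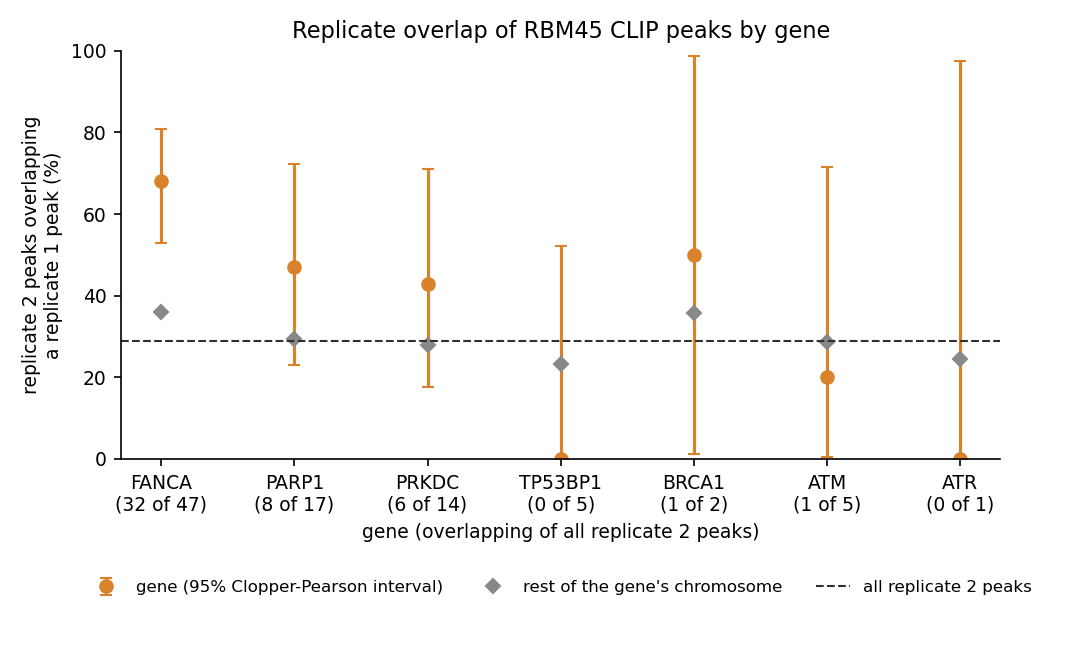
Percentage of replicate 2 peaks that overlap a replicate 1 peak on the same strand (vertical axis) by gene (horizontal axis, with counts); circles with bars are the gene's share and its Clopper-Pearson interval, diamonds the rest of the gene's chromosome, and the dashed line all replicate 2 peaks at 28.8%. The interval of FANCA, 52.9 to 80.9%, lies wholly above the line, and the intervals of the other genes include it.

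Stronger peaks were also common in the set. Of the replicate 1 members 82.6% lay in the stronger 50% of their list by −log10 p, and of the replicate 2 members 82.4% did. Within those stronger parts the overlap was 39 of 75, 52.0% (40.2 to 63.7), against 33.2% of all such replicate 2 entries. FANCA then had 27 of 44 (61.4%, 45.5 to 75.6) and the other genes together 12 of 31 (38.7%, 21.9 to 57.8). The replicate 1 peaks covered 4028 bases of the 79.1 kb of FANCA, against 1784 bases of the 187 kb of PRKDC and 1012 bases of the 47.4 kb of PARP1. The part of peak density in the overlap was not tested.

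Fold enrichment, the authors' value for each peak over the caller's background, was moderate throughout. The member median was 3.95 in replicate 1, with quartiles of 3.06 and 4.84, and 4.31 in replicate 2, with quartiles of 3.33 and 6.10, against 3.12 and 3.81 over all entries. Without FANCA the pooled medians were 3.77 and 3.59, below the level of all entries in replicate 2. Members of at least 5-fold numbered 37 (20.8%) in replicate 1 and 32 (35.2%) in replicate 2, against 9.16% and 18.0% of all entries. FANCA gave 18 and 22 of them, and without it the shares were 19.2% and 22.7%. Its median was 4.09 in replicate 1 and 4.91 in replicate 2. PARP1 had medians of 4.38 and 3.65, PRKDC of 3.61 and 3.86, BRCA1 of 3.86 and 3.44, and TP53BP1 of 3.42 and 4.79. No member exceeded 11.3-fold in replicate 1 or 9.91-fold in replicate 2, and both of those peaks lay in FANCA. Member peaks were slightly wider than peaks at large, with a median width of 37 bases in replicate 1 and 35 in replicate 2, against 30 and 31 over all entries.

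Among the damage kinases, PRKDC carried most of the peaks and ATM and ATR few. PRKDC lies at chromosome 8, 48685669 to 48872743, on the minus strand. With the gene cut into 5 equal parts from the 5′ end, replicate 1 had 14, 5, 5, 11 and 5 peaks and replicate 2 had 7, 1, 2, 2 and 2. The part at the 5′ end thus led in both, with a further 11 replicate 1 peaks in the part before the last. A stretch of 3.15 kb, 7.48 to 10.6 kb from that end, held 9 of the 40 replicate 1 peaks and 7 of the 14 replicate 2 peaks. That stretch also held 4 of the 5 shared pairs. The strongest PRKDC peak by −log10 p was the same in both lists. It lay at 48863510 to 48863549 in replicate 1 (8.03-fold, −log10 p 21.0) and at 48863512 to 48863550 in replicate 2 (6.96-fold, 16.4). The nearest pair, at 48863586 to 48863621, was 3.54-fold in replicate 1 and 4.13-fold in replicate 2. The others of the stretch were a pair at 48865230 to 48865264 with 5.34-fold in replicate 1 and 6.22-fold in replicate 2, and a pair at 48862465 to 48862497 with 4.28 and 5.84. The remaining pair stood alone in the gene body, 60.8 kb from the 5′ end, with 3.83 and 2.51. Over the rest of the gene, 31 other replicate 1 peaks and 7 other replicate 2 peaks gave 2 overlaps. These were the lone pair and one at 48729005 to 48729082 that fell outside the authors' list. Over all entries 28.8% of replicate 2 and 8.88% of replicate 1 peaks overlapped, so these counts do not set the rest of the gene apart.

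ATM lies at chromosome 11, 108093559 to 108239826, plus strand, and had no shared pair. Its only overlap was close to the gene start. There a replicate 1 peak at 108094164 to 108094228 (3.90-fold) and a replicate 2 peak at 108094129 to 108094174 (2.08-fold) had 11 bases in common, 0.637 and 0.593 kb from the 5′ end by their midpoints. In mid-gene, a replicate 1 peak at 108166242 to 108166271 (5.51-fold) and the strongest replicate 2 peak of ATM, 108166074 to 108166104 (3.33-fold), were 138 bases apart without touching. The strongest replicate 1 peak, 108096549 to 108096580 with 5.89-fold, had no counterpart. ATM peaks of replicate 2 ran from 2.08 to 3.33-fold, and those of replicate 1 from 3.29 to 5.89-fold. ATR lies at chromosome 3, 142168077 to 142297668, minus strand. Of its 7 replicate 1 peaks, 3 lay 4.02 to 6.07 kb from the 5′ end, and the strongest of these was 4.86-fold at 142293274 to 142293304. Its single replicate 2 peak, 4.23-fold at 142229014 to 142229043, was 7468 bases from the nearest replicate 1 peak.

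PARP1 had nearly as many peaks in the shorter list as in the longer one, and peaks along its whole length. The gene lies at chromosome 1, 226548392 to 226595801, minus strand. Of its 6 shared pairs, 2 lay within the first 0.82 kb. The one at 226595591 to 226595634 was 3.06-fold in replicate 1 and 2.74-fold in replicate 2, and the one at 226594981 to 226595013 was 6.53-fold and 2.86-fold. Another 2 stood side by side in mid-gene, and the stronger of them, 226570736 to 226570768, had 6.12 and 4.52. The pair at 226581868 to 226581897 had 4.34 and 6.90 and was the strongest PARP1 peak of replicate 2 by −log10 p and by fold. The strongest replicate 1 peak by −log10 p (13.1), 226569598 to 226569629 with 4.95-fold, had no counterpart. A stretch of 3.24 kb starting 33.8 kb from the 5′ end held 4 replicate 1 and 5 replicate 2 peaks but only 1 overlap and no listed pair. There both lists placed peaks in the same region and mostly at different bases. In 5 of the 6 pairs the fold was higher in replicate 1.

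The genes that steer the choice between end joining and recombination had few peaks, and only BRCA1 had a shared pair. BRCA1 lies at chromosome 17, 41196312 to 41277500, minus strand, and its pair lay 4.59 kb from the 5′ end. The replicate 1 peak at 41272891 to 41272922 was 5.72-fold and the replicate 2 peak at 41272894 to 41272923 was 4.31-fold, and it was the stronger of the 2 BRCA1 peaks of replicate 2. The strongest replicate 1 peak of BRCA1, 41277193 to 41277238 with 6.20-fold, lay 0.285 kb from the 5′ end and was not found in replicate 2. TP53BP1 lies at chromosome 15, 43699412 to 43802707, minus strand. Its 12 replicate 1 and 5 replicate 2 peaks shared no base. The closest were 30 bases apart, and in both lists the first 22.5 kb from the 5′ end held no peak. The strongest were 6.08-fold at 43713763 to 43713795 in replicate 1 and 6.11-fold at 43779801 to 43779832 in replicate 2. BRCA2 lies at chromosome 13, 32889617 to 32973809, plus strand. Its 3 peaks, all in replicate 1, lay 49.6 to 58.9 kb from the 5′ end, and the strongest was 6.08-fold at 32948489 to 32948527. The replicate 2 list was 3.22 times shorter, and a count of 0 allows up to 3.69 peaks by the exact Poisson interval, so at this count a lower BRCA2 density was not detectable.

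TP53BP1 differed from the other genes in how its strand was given. All 12 replicate 1 and all 5 replicate 2 peaks of TP53BP1 were listed on both strands, with the same positions and values. In the other 7 genes 1 peak was listed so, a replicate 2 peak in FANCA at 89806242 to 89806279. Peaks on both strands therefore made up 12 of 178 members in replicate 1 (6.74%) and 6 of 91 in replicate 2 (6.59%), against 3.61% and 3.26% of all entries. No gene had a peak on the opposite strand alone. Ignoring strand changed no overlap count between the lists, in the members or over all replicate 2 entries. The sources used here do not give how strand was assigned, so the lack of opposite-strand peaks cannot be read as strand specificity of the CLIP. For the same reason the TP53BP1 peaks cannot be placed on that gene's RNA rather than on one from the other strand.

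**Figure D3:**
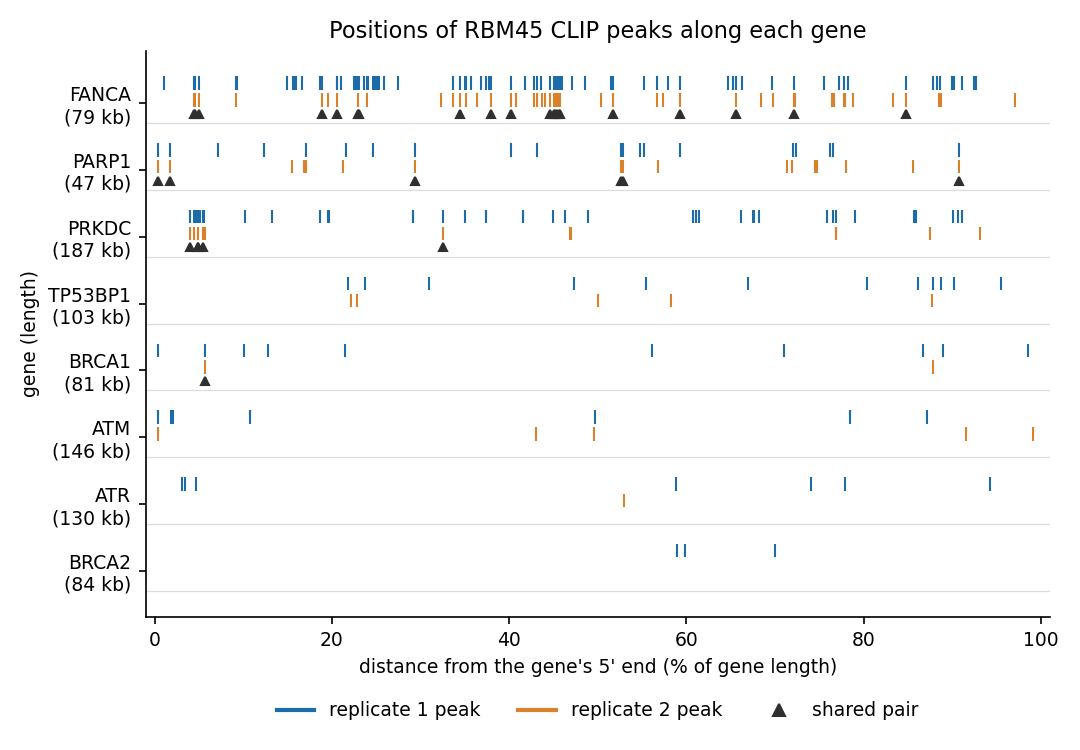
Position of each peak along its gene (horizontal axis, percent of gene length from the 5′ end) for the 8 genes (rows, with length); blue and orange ticks are peaks of replicates 1 and 2, and triangles are shared pairs. PRKDC pairs crowd near the 5′ end, FANCA pairs run along the gene with a crowd near its middle, and ATM, ATR, TP53BP1 and BRCA2 have none.

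FANCA peaks were spread along most of the gene's length in both replicates. The gene lies at chromosome 16, 89803959 to 89883065, minus strand. Its 21 shared pairs lay 3.55 to 67.0 kb from the 5′ end. With the gene cut into 5 equal parts from the 5′ end, replicate 1 had 13, 27, 20, 10 and 9 peaks, replicate 2 had 6, 9, 17, 10 and 5, and the pairs numbered 4, 5, 9, 2 and 1. The part next to the 5′ one thus led in replicate 1, and the middle part in replicate 2 and among the pairs.

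The fullest stretch of FANCA ran from 89845826 to 89851296, 31.8 to 37.2 kb from the 5′ end. In 5.47 kb it held 13 replicate 1 and 12 replicate 2 peaks, 9 overlaps and 7 pairs. Inside it, 6 pairs followed each other within 944 bases, from 89846837 to 89847780. The outermost of these on the 5′ side, 89847744 to 89847778, was 4.94-fold in replicate 1 and 9.78-fold in replicate 2, and was the strongest FANCA peak of replicate 2 by −log10 p (23.1). The one on the 3′ side, 89846837 to 89846870, was 8.77-fold and 6.96-fold. The 4 between them ran from 2.29 to 6.11-fold in replicate 1 and from 3.93 to 5.98-fold in replicate 2.

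A second group sat near the FANCA 5′ end, where 3 pairs lay within 437 bases, 3.53 to 3.97 kb from it. The pair at 89879499 to 89879532 had 7.19-fold in replicate 1 and 9.34-fold in replicate 2. By the lower of its fold values it was the strongest FANCA pair, followed by the pair at 89846837 to 89846870. A single pair at 89868090 to 89868136 came next with 6.86 and 7.82. The least balanced pair of the set was also here, at 89879096 to 89879125, with 2.64 in replicate 1 and 8.13 in replicate 2. Elsewhere replicate 1 had peaks that replicate 2 lacked. A stretch at 89862575 to 89865280 held 13 replicate 1 peaks but 2 replicate 2 peaks. Both of these replicate 2 peaks overlapped replicate 1, with 3 overlaps and 2 pairs in the stretch. The highest replicate 1 fold of the set, 11.3 at 89853929 to 89853982, had no counterpart.

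**Figure D4:**
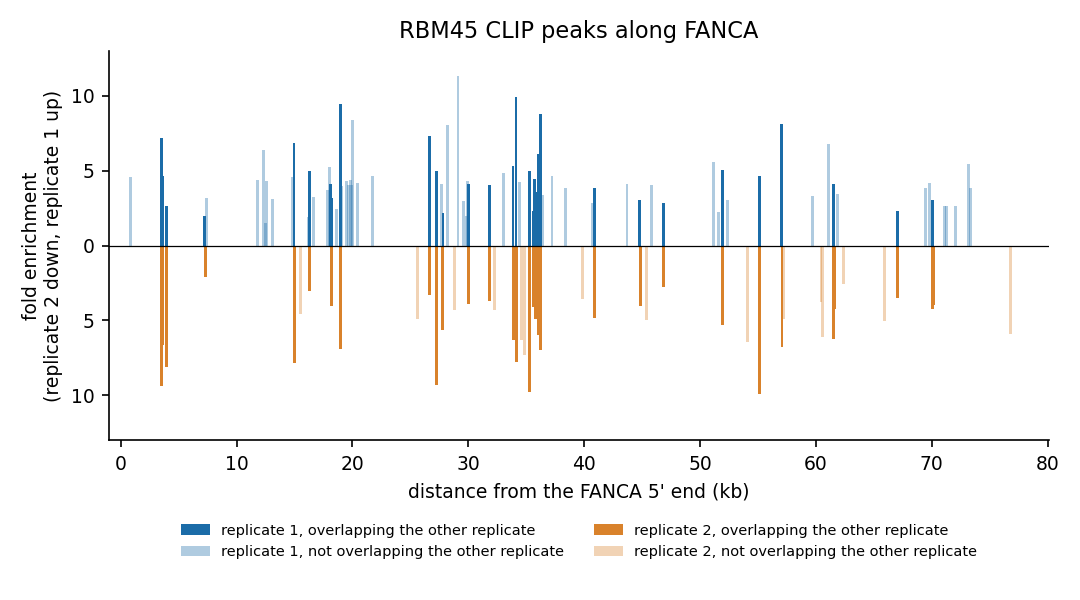
Fold enrichment of each FANCA peak (vertical axis, replicate 1 upward and replicate 2 downward) by distance from the FANCA 5′ end in kb (horizontal axis); dark bars overlap a peak of the other replicate and pale bars do not, and bar width is not to scale. Dark bars crowd between 31.8 and 37.2 kb, and the tallest replicate 1 bar, 11.3-fold, is pale.

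The authors' list left out part of the overlap in these genes, as it did over all entries. It takes pairs whose overlap covers at least 50% of the replicate 1 peak, so a wide replicate 1 peak can be dropped. Of 49 overlaps in the 8 genes, 33 were in the list and 16 were not. FANCA held 33 of the 49 overlaps and 12 of the 16 that were left out. They include the strongest replicate 1 peak of FANCA by −log10 p, 89864059 to 89864129 (9.43-fold, −log10 p 28.9), whose overlap with a 6.91-fold replicate 2 peak covered 32 of its 71 bases. Another was the 124-base peak at 89848890 to 89849013, with 9.91-fold in replicate 1 and 7.79-fold in replicate 2. Under the authors' rule 18.5% of replicate 1 members and 35.2% of replicate 2 members were in the list, against 6.52% and 20.9% of all entries. In replicate 1, 47 members had an overlap and 33 were in the list. Over all replicate 1 entries these numbers were 18721 and 13758, so the loss was not particular to the set.

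Shared pairs of the set were near shared pairs at large in median fold, but a larger share of them reached 5-fold in both lists. Their median was 4.34 in replicate 1 and 4.52 in replicate 2, against 4.11 and 4.23 over all pairs. In 31 of 33 pairs (93.9%) the larger fold was at most 2 times the smaller, against 90.5% of all pairs, and the SD of the log2 ratio was 0.56 against 0.61. Fold was higher in replicate 2 in 17 pairs and in replicate 1 in 16. Both peaks reached 5-fold in 8 pairs (24.2%), 6 of FANCA and 2 of PRKDC, against 13.9% of all pairs. PARP1 and BRCA1 had no such pair.

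**Figure D5:**
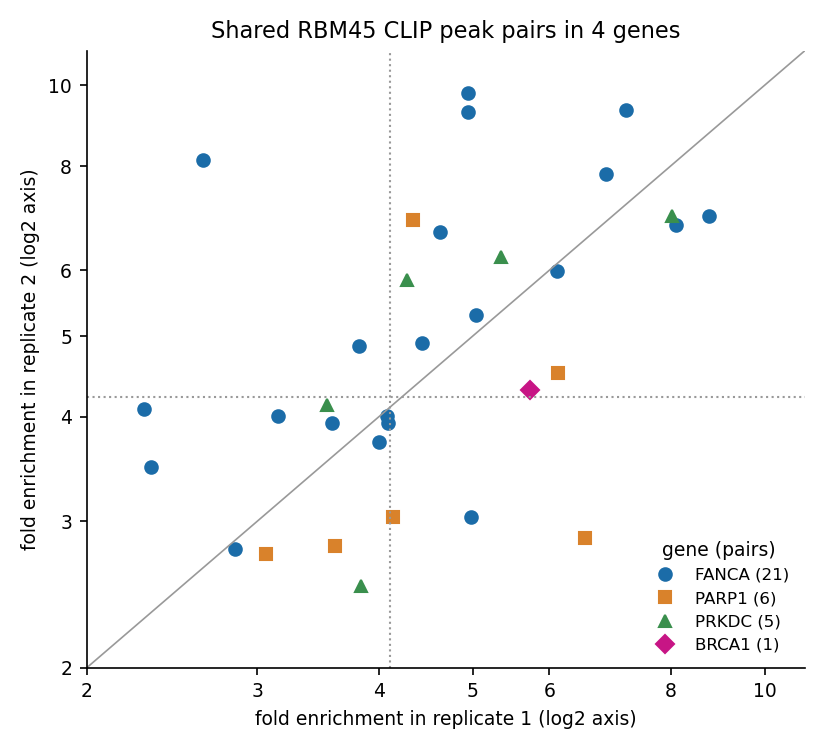
Fold enrichment in replicate 2 (vertical log2 axis) against replicate 1 (horizontal log2 axis) for the 33 shared pairs, by gene; the line marks equal folds and the dotted lines the medians of all pairs, 4.11 and 4.23. FANCA pairs span 2.29 to 8.77 in replicate 1 and 5 of the 6 PARP1 pairs lie below the line.

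Peaks of FANCA lay close to others of their list. Over the 8 genes, another peak within 1 kb on the strand was found for 114 of 178 replicate 1 members (64.0%) and 61 of 91 replicate 2 members (67.0%), against 54.9% and 43.4% of all entries. Among the pairs 17 of 33 (51.5%) had another pair within 1 kb, against 29.6% of all pairs. Without FANCA the shares were 44 of 99 (44.4%) in replicate 1, below all entries, 24 of 44 (54.5%) in replicate 2, above them, and 6 of 12 pairs. FANCA and PRKDC gave 70 and 26 of the replicate 1 members with such a neighbour, while none of the 10 BRCA1 peaks of replicate 1 had one. Of the 43 replicate 2 members without an overlap, 30 were within 1 kb of a replicate 1 peak and the median distance was 671 bases. In FANCA 13 of 15 were that close, and in ATM 1 of 4. The same distance was not computed over all entries, so whether this closeness is particular to the set is unknown.

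No member crossed a gene end, and around FANCA the strand of the peaks changed at the 5′ end. The 100 kb upstream of FANCA held no minus-strand peak in either list, although 67 replicate 1 and 28 replicate 2 peaks lay there when strand was ignored. Downstream there were 40 and 37 on the minus strand and 70 and 50 in all. The nearest replicate 1 peak of the same strand was 0.844 kb inside the FANCA 5′ end and 189 kb outside it, and 5.77 kb inside and 17.5 kb outside the 3′ end. PRKDC had no same-strand peak within 100 kb on either side in either list. When strand was ignored, 23 replicate 1 and 28 replicate 2 peaks lay upstream of PRKDC, and 19 and 6 downstream. The strand of the peaks thus changed at both PRKDC ends too. PARP1 had no peak of any strand in the 100 kb upstream and 6 and 3 in the 100 kb downstream. The regions around FANCA were thus also rich in peaks, and those around PARP1 were not. The part of strand assignment in these edges was not tested.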

How the data were processed

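The 8 samples form 4 groups of 2 replicates. Per the labels' protocols, cells received 300 mJ/cm2 of ultraviolet light at 254 nm and libraries followed an iCLIP protocol. The submitters' processing notes name hg19 and, with no role, deepTools 3.2.1, HOMER 4.11.1, Novoalign 3.09.00, bedtools 2.25.0 and MACS2 2.1.1.20160309. The authors' deposited peak lists give each peak an unadjusted −log10 p and its fold, a ratio to the background of the caller. Peak names carry the library, so peaks were called per library, at a p threshold of 0.005 per those names. The sources used here do not give whether the caller was run against the input. Each deposited count table column (8 in all) matches no sample label and was not used, so the planned count test was not run and the depth behind each list is unknown.

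An entry is 1 peak on 1 strand, with repeated rows counted once. Positions count from 1. Peaks overlapped where they had 1 base or more in common on 1 strand. Distances run from a peak's midpoint to the gene's 5′ end as the interval gives it. The strongest peak of each gene and list by −log10 p, and up to 3 pairs per gene by the lower fold, were named by rule; other peaks were named after their values were seen. The members, intervals and lists were chosen with earlier results of these data known. Exons, introns, sequences and other genes of the pathway were not analysed here, since they need an hg19 genome or annotation. Intervals are 95% Clopper-Pearson or exact Poisson. Counting of overlaps was checked with simulated peaks and against bedtools. Scripts ran in Python 3.11.15 with matplotlib 3.10.9, scipy 1.17.1, pandas 2.3.3 and numpy 2.4.6.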

Additional observations from a re-analysis of the deposited data

How the results depend on the processing

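At a minimum of 5-fold, members numbered 37 in replicate 1 and 32 in replicate 2, and pairs 8, while the stronger 50% of each list by −log10 p kept 147 and 75 members. The order of the sparse genes is not resolved at these counts, and depth is unknown. The pooled density, all member peaks over the summed gene length of 858 kb, was 15.7 peaks per 100 kb as the mean of both replicates. It was 20.7 in replicate 1 alone and 10.6 in replicate 2 alone. The overlap share of 52.7% fell to 33.0% with 50% of each peak required and to 35.2% for 50% of the replicate 1 peak, against 19.6% and 20.9% of all entries, because fewer pairs qualify; FANCA then gave 38.3% and 42.6%. The stronger 50% left the overlap share at 52.0%. Ignoring strand changed no overlap count, 48 of 91 for the members and 18914 of 65587 for all replicate 2 entries. That setting therefore could not move the share. The opposite-strand share, 6.32% in replicate 1 and 6.19% in replicate 2, was 0 in both without peaks listed on both strands. The median fold in peaks of the shared list was 4.34 in replicate 1 and 4.69 in replicate 2; in replicate 2 it was 3.86 as a median of gene medians and 3.59 without FANCA; the cause was not tested. The first of 5 equal parts of the gene held 24.2% of replicate 1 and 22.0% of replicate 2 peaks, and 33.3% of the pairs. In 3 parts the first held 39.3% of replicate 1 peaks, since it is longer. Midpoints and merging of touching peaks changed no count. Leaving out FANCA or peaks on both strands was chosen after seeing the data. No paired analysis was possible because no result comes from a test between groups.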

Other observations

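Many peaks fill several identical rows of the lists, and in these genes the number of rows went with the gene. Peaks of ATM, ATR, BRCA2 and PARP1 filled 1 row each, those of PRKDC 2 and those of TP53BP1 3 on its own strand and 1 on the other. BRCA1 peaks filled 6 rows, except for 1 replicate 1 peak 0.285 kb from the 5′ end that filled 5. FANCA peaks filled 3 rows up to 18.2 kb from the 5′ end and 2 rows from 18.6 kb on, in both lists. The sources used here do not give the reason, and repeats were counted once throughout.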
